A study of Mus musculus with 8 samples.

Results

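The members described here are adipokines, proteins that fat tissue secretes as hormones or local signals. They were chosen by name: Lep, Adipoq, Retn, Cfd, Nrg4, Rbp4, Nampt, Apln and Metrnl, each read on the brightest array row whose annotation gives that 1 gene symbol. Such a row was found for 8 of the 9 genes, of 19310 genes with a row of this kind, and each of the 8 had a single row. Cfd, which encodes adipsin, was not analysed here. Epididymal white adipose tissue, a visceral fat pad of the abdomen, was compared on whole-transcript arrays between 4 samples labelled Rev-erb alpha KO and 4 samples labelled WT. All were from C57BL/6 males aged 12 to 15 weeks on a standard diet, with tissue taken 10 h after lights on in a cycle of 12 h light and 12 h dark. The labels do not say how the knockout was made, and number the replicates without saying whether each is a separate mouse, so each p-value rests on a spread between samples that may be technical.

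White adipocytes report the state of their lipid stores through secreted proteins. Leptin tells the brain how much fat is stored and lowers food intake, whereas adiponectin raises insulin sensitivity in liver and muscle. Neuregulin 4, the product of Nrg4, is an EGF-like ligand of ErbB receptors that is abundant in brown fat and acts on the liver. Rev-erb alpha, encoded by Nr1d1, is a heme-binding nuclear receptor that represses transcription in the circadian clock.

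Values are the deposited log2 expression values, in which a step of 1 is a doubling. Array medians lay between 5.90 and 5.95 log2, and the number of arrays limits the precision. The row of the targeted gene, Nr1d1, read 9.56, 9.28, 8.90 and 8.80 log2 in the knockout-labelled arrays 1 to 4, against 9.47, 9.11, 9.18 and 9.83 in the WT arrays. It differed by -0.26 on the log2 scale (SE 0.19, limma adjusted p = 0.479). The sources used here do not say whether the row reads the deleted part of the transcript, so the row cannot check the genotype and the arrays are called knockout-labelled. Arntl, a clock gene repressed by Rev-erb alpha, was 3.61-fold higher in them, and of the 6 clock genes measured 3 were called higher and 0 lower. The others called were Clock, the partner of the Arntl protein (0.71, SE 0.078, limma adjusted p = 0.000612), and Nfil3, a Rev-erb alpha target that encodes a repressor (1.48, SE 0.17, 0.000690). On the component with the largest variance (43.2%) the groups were apart. On the next (14.7%) knockout-labelled arrays 1 and 2, at -12.8 and -10.7, lay apart from arrays 3 and 4, at 11.4 and 5.91, and WT array 1, at 9.93, lay apart from the other WT arrays, at -2.42 to 0.43. Of 20748 rows tested, 791 were called higher and 745 lower (limma, Benjamini-Hochberg adjusted p under 0.05). The tissue label was checked against adipocyte markers other than the members: the 16 measured averaged 10.94 to 11.06 log2 over the arrays, while 8 epididymis markers averaged 4.18 to 4.23 in knockout-labelled and 4.21 to 4.34 in WT arrays, below the array medians.

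Lep and Nrg4 moved in opposite directions and had the largest differences of the 8 members. Lep rose 1.68-fold, and Nrg4 was 2.01-fold lower, in the knockout-labelled tissue. Rbp4 rose and Nampt fell by smaller amounts, and both calls were lost when certain single arrays were left out. Adipoq, Retn, Apln and Metrnl did not pass the test. Thus 2 of 8 measured members were called higher, where 3.81% of all rows were, and 2 lower, where 3.59% of all rows were. In either direction the share over all rows was 7.40%. These shares cover dim rows too and are not matched to the members for brightness. The median log2 fold change of the 8 was 0.04, and that of all rows -0.01. The groups did not overlap in 3 of the 8, against 15.3% of all rows: 2 members lay higher (7.18% of all rows) and 1 lower (8.16%). The members were picked with earlier results of these data known.

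**Figure D1:**
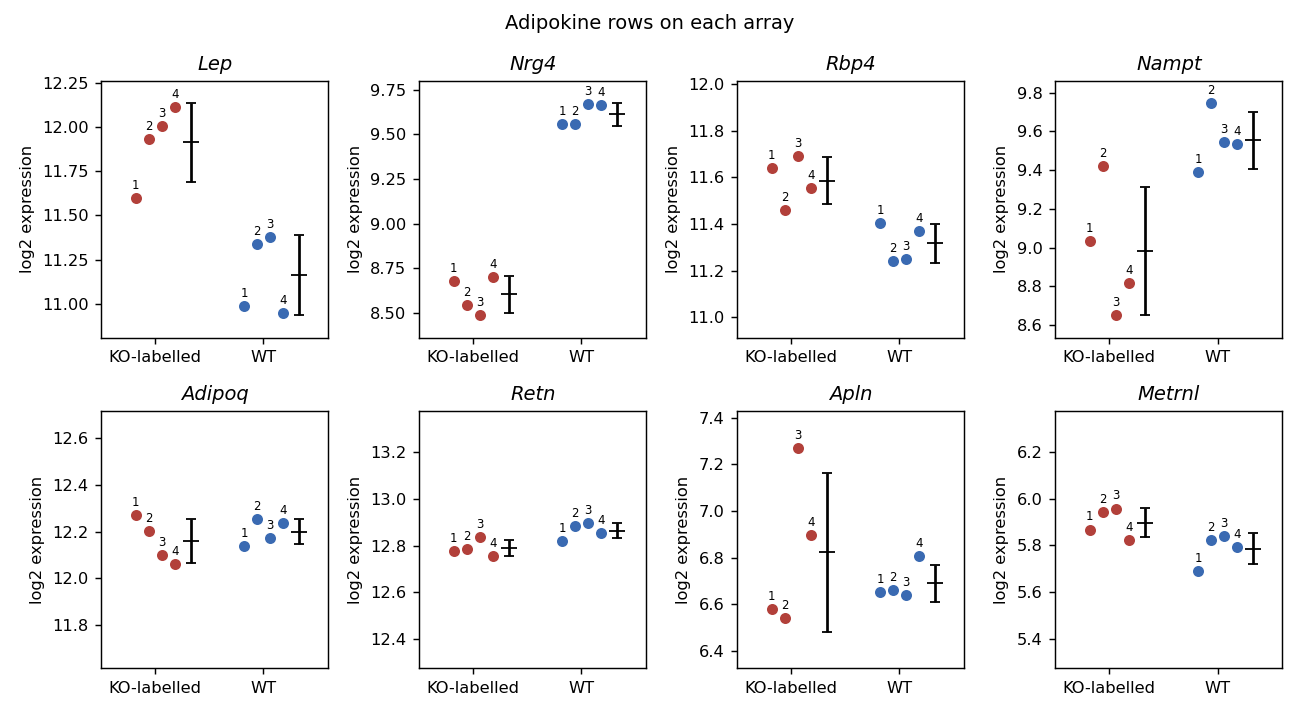
Log2 expression of the 8 measured adipokines on each array (vertical axes, each spanning at least 1 log2), with knockout-labelled arrays left of WT arrays. Points carry the replicate number, and black bars give the mean and SD (n = 4 arrays). Nrg4 arrays lie at 8.49 to 8.70 in the knockout-labelled group and 9.56 to 9.67 in WT, the widest gap of the 8, while Adipoq points of both groups overlap.

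Nrg4 (row 10593776) read 8.68, 8.55, 8.49 and 8.70 log2 in the knockout-labelled arrays, against 9.56, 9.56, 9.67 and 9.66 in the WT arrays. Every knockout-labelled array lay below every WT array, and the arrays of each group lay close together. The means were 8.61 ± 0.10 in the knockout-labelled and 9.61 ± 0.06 in the WT group (SD, n = 4 each), a log2 fold change of -1.01 (SE 0.064, 95% interval -1.15 to -0.86, limma adjusted p = 4.82e-05). By p-value the row stood at place 6 of the 20748 tested. The call held in all 18 alternative fits, with values from -1.04 to -0.97 when single arrays were left out.

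The stretch just before the annotated start of Nrg4 is shown because it was searched for letters that Rev-erb alpha and related nuclear receptors bind. It covers the 250 bases upstream of the start (RefSeq, GRCm38.p6, chr9:55283626-55283875, minus strand, printed 5′ to 3′). Capitals mark matches to AGGTCA, the motif that nuclear receptors share, which reads as its reverse complement TGACCT here.
Nrg4: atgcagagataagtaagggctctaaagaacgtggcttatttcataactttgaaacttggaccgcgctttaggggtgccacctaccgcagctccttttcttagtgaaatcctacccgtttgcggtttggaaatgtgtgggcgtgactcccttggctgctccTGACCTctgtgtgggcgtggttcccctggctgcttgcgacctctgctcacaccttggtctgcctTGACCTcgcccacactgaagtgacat
The window holds AGGTCA at 2 places, the nearer ending 21 bases before the start. At least 1 match on either strand was present in 14.0% of 32851 windows of this length before annotated starts of all genes, and at least 2 in 1.36%. The longer core TAGGTCA, in which AGGTCA follows a T as at sites of Rev-erb and ROR receptors, was absent from the window and present in 2.23% of all windows. No match was found to the E-box CACGTG bound by clock activators (6.02% of all windows), to TTGCNNAA for C/EBP factors (9.56%), to the TATA box TATAAA (12.4%) or to the GC box GGGCGG (32.7%). A match is a description of letters, and binding was not measured.

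Lep (row 10536789) read 11.60, 11.93, 12.01 and 12.11 log2 in the knockout-labelled arrays, against 10.99, 11.34, 11.38 and 10.95 in the WT arrays. The groups did not overlap, and the lowest knockout-labelled array, array 1, lay nearest to WT arrays 2 and 3. The means were 11.91 ± 0.22 and 11.16 ± 0.23 (SD, n = 4 each) in knockout-labelled and WT tissue, a log2 fold change of 0.75 (SE 0.13, 95% interval 0.47 to 1.03, limma adjusted p = 0.00680). The call held in 17 of 18 alternative fits. With knockout-labelled arrays 3 and 4 left out, the value was 0.60 and the adjusted p 0.0725.

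The same 250 bases are shown for Lep (RefSeq, GRCm38.p6, chr6:29059971-29060220, plus strand), whose promoter is known to carry a C/EBP site. Capitals mark a GC box and, nearer the start, a match to TTGCNNAA at 55 to 48 bases before it.
Lep: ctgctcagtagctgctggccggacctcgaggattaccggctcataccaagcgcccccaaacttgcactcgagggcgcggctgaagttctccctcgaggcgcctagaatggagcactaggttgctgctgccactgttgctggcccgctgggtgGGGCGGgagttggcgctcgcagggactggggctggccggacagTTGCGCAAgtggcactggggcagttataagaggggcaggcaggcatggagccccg
Neither AGGTCA nor CACGTG was found in this window. The gene of the C/EBP factor that drives leptin in adipocytes, Cebpa, was lower in the knockout-labelled tissue, as given with the regulators.

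Adipocyte content of the tissue was read from 16 measured marker genes besides the members. Their mean level spanned 10.96 to 11.06 log2 in knockout-labelled and 10.94 to 11.05 in WT arrays, and their median log2 fold change was 0.00. Of these, the glycerol channel gene Aqp7 rose (0.39, SE 0.067, limma adjusted p = 0.00679) and the other 15 did not pass. Plin1 (-0.20, 0.0529) and Lipe (-0.15, 0.141), chosen after their values were seen, lay lower on every knockout-labelled array than on any WT array. Of the 16, 8 had log2 fold changes above 0 and 8 below. In bulk tissue, fewer cells of a type and less RNA per cell cannot be told apart. Markers of other cell types are given beside the 7.40% of all rows called in either direction. The 11 measured progenitor and fibroblast markers averaged 8.64 to 8.83 in knockout-labelled and 8.19 to 8.55 in WT arrays (4 higher, 0 lower), and the 12 endothelial markers 8.34 to 8.47 and 8.12 to 8.32 (2 higher, 0 lower). The endothelial call of Cldn5 (0.99, limma adjusted p = 0.00101) held in all 18 alternative fits. That of Pecam1 was lost in 10 (adjusted p 0.0712 to 0.250), which include each fit without a single array other than knockout-labelled array 2. Of the progenitor calls, Col1a1 (0.71, limma adjusted p = 0.00100) and Mfap5 (0.84, 0.00299) also held in all 18. Anxa3 (0.51, 0.00509) was lost only without knockout-labelled arrays 3 and 4 (0.0582). The progenitor call of Pi16 was lost in 7 (0.0510 to 0.244), which include those without knockout-labelled array 3 or 4 or WT array 2, 3 or 4. The 12 macrophage markers averaged 7.63 to 7.94 in knockout-labelled and 7.34 to 7.81 in WT arrays (0 higher, 1 lower). The lower one, Cd14 (-0.38, limma adjusted p = 0.0116), was lost only without knockout-labelled arrays 3 and 4 (0.112). Of 10 smooth muscle and pericyte genes, 2 were higher, Acta2 (0.89, limma adjusted p = 0.00911) and Rgs5 (0.66, 0.00858). Both were lost only without knockout-labelled arrays 3 and 4 (0.0509 and 0.0861). Tagln was lower, a call lost in 11 of 18 fits (0.0510 to 0.102), which include those without knockout-labelled array 3 or 4 or any 1 WT array. Of 9 mesothelial genes, Msln was higher and 0 were lower, while the other 8 had log2 fold changes below 0 and the list's median was -0.20. Of 10 skeletal muscle genes, Actn3 was lower, a call lost in 8 fits (0.0502 to 0.233), which include those without knockout-labelled array 1, 3 or 4 or WT array 2, 3 or 4. Of 9 lymphocyte genes, 0 passed in limma, with 0 at an unadjusted p under 0.05. The part of these markers in the adipokine differences was not tested.

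Since neuregulin 4 is abundant in brown fat, the 10 brown and beige adipocyte markers are set beside it. Their mean level spanned 5.18 to 5.34 log2 in knockout-labelled and 5.26 to 5.42 in WT arrays, and their median log2 fold change was -0.02. The defining uncoupling protein gene Ucp1 was at 4.16 ± 0.12 in the knockout-labelled and 4.11 ± 0.04 in the WT group (SD, n = 4 each; limma adjusted p = 0.707), below the array medians in both. Of the 10, the early B cell factor gene Ebf2, which acts in brown and beige precursors, fell (-0.79, SE 0.071, adjusted p = 0.000203), as did the mitochondrial coactivator gene Ppargc1a (-0.56, SE 0.10, 0.00891), and the respiratory subunit gene Cox7a1 rose (0.33, SE 0.071, 0.0189). Thus 1 of the 10 was called higher and 2 lower, where 3.81% and 3.59% of all rows were. The call of Ppargc1a was lost with knockout-labelled arrays 3 and 4 left out (0.0564). That of Cox7a1 was lost in 5 fits (adjusted p 0.0516 to 0.143): without knockout-labelled array 3, array 4 or both, and without WT array 2 or 3.

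Rbp4, which encodes the plasma carrier of retinol, read 11.64, 11.46, 11.69 and 11.55 log2 in the knockout-labelled arrays, against 11.40, 11.24, 11.25 and 11.37 in the WT arrays. The groups did not overlap, with knockout-labelled array 2 and WT array 1 nearest to each other. The groups differed by 0.27 on the log2 scale (SE 0.067, limma adjusted p = 0.0353), a 1.21-fold difference. The call was lost in 9 of 18 alternative fits, including quantile normalization (adjusted p = 0.0667) and those without knockout-labelled array 1, 3 or 4 or WT array 2, 3 or 4 (0.0630 to 0.0940), while the value stayed between 0.23 and 0.31 with single arrays left out.

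Nampt encodes the enzyme that makes nicotinamide mononucleotide in NAD salvage, is also found outside cells as visfatin, and is known as an E-box target of the clock. It read 9.04, 9.42, 8.65 and 8.82 log2 in the knockout-labelled arrays, against 9.39, 9.75, 9.55 and 9.53 in the WT arrays. The groups overlapped, since knockout-labelled array 2 lay above WT array 1, and the knockout-labelled arrays were spread more widely (SD 0.33) than the WT arrays (SD 0.15). The groups differed by -0.57 on the log2 scale (SE 0.14, limma adjusted p = 0.0391), a 1.49-fold lower level. The call was lost in 7 of 18 alternative fits: without knockout-labelled array 1, 3 or 4 or WT array 2, 3 or 4 (adjusted p 0.0665 to 0.110), and without knockout-labelled arrays 3 and 4 together, where the value was -0.33 (0.228).

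The upstream window of Nampt (RefSeq, GRCm38.p6, chr12:32820085-32820334, plus strand) is shown because of its role as a clock target. Capitals mark GC boxes, which read GGGCGG or CCGCCC, and a single AGGTCA, which starts 151 bases before the start.
Nampt: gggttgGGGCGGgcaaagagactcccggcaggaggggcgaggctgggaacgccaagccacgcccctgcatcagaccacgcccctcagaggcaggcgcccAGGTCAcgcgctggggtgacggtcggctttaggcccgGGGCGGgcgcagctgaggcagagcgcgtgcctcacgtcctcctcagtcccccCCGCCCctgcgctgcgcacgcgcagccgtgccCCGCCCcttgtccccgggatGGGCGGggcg
GC boxes were found at 5 places, and CACGTG and TAGGTCA at none. All 9 listed members, Cfd included, had a promoter entry, and Rbp4 had 2. Of these 10 windows, those of Nrg4 and Nampt held AGGTCA, and TAGGTCA and CACGTG were found in none of the 10.

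Adipoq and Retn, the genes of adiponectin and resistin, did not pass the test, and their rows were steady across arrays. Adipoq read 12.27, 12.20, 12.10 and 12.06 log2 in the knockout-labelled arrays, against 12.14, 12.25, 12.17 and 12.24 in the WT arrays, with a log2 fold change of -0.04 (95% interval -0.18 to 0.09, limma adjusted p = 0.753). Retn read 12.78, 12.79, 12.84 and 12.75 in the knockout-labelled arrays, against 12.82, 12.89, 12.90 and 12.85 in the WT arrays. Its log2 fold change was -0.08 (95% interval -0.18 to 0.03, limma adjusted p = 0.408), and 3 of 4 knockout-labelled arrays lay below every WT array.

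Apln, whose peptide apelin acts on vessels and the heart, and Metrnl, whose product meteorin-like is a secreted factor of fat and muscle, did not pass either. Apln read 6.58, 6.54, 7.27 and 6.90 log2 in the knockout-labelled arrays, against 6.65, 6.66, 6.64 and 6.81 in the WT arrays. Knockout-labelled arrays 3 and 4 lay above every WT array and arrays 1 and 2 below every one, so that the log2 fold change of 0.13 (SE 0.14, limma adjusted p = 0.645) was -0.13 with arrays 3 and 4 left out. Metrnl read 5.87, 5.94, 5.96 and 5.82 in the knockout-labelled arrays, against 5.69, 5.82, 5.84 and 5.79 in the WT arrays. Its log2 fold change was 0.11 (95% interval -0.01 to 0.24, limma adjusted p = 0.284), with knockout-labelled arrays 1, 2 and 3 above every WT array.

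**Figure D2:**
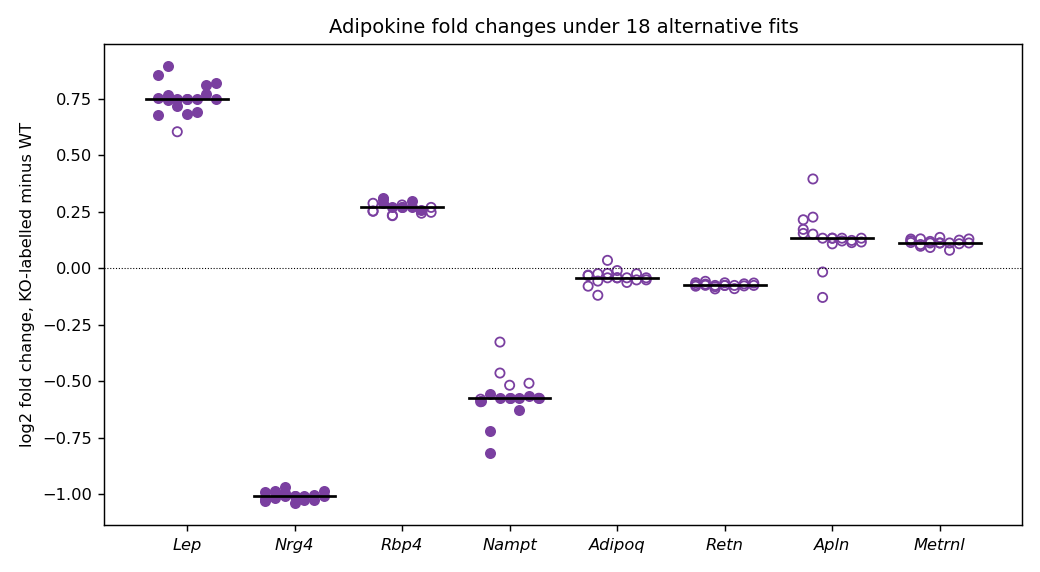
Log2 fold change of each adipokine, knockout-labelled minus WT (vertical axis), in 18 alternative fits (points) and in the fit as reported (black line). Filled points passed a limma adjusted p under 0.05 and open ones did not. Nrg4 is filled in all 18, Lep in 17, Nampt in 11 and Rbp4 in 9, and Apln points lie on both sides of 0.

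Receptor genes of the members were read in the tissue that makes the ligands. Of 12 measured receptor genes, 1 was called higher and 0 lower, where 3.81% of all rows were higher and 3.59% lower. The list's median log2 fold change was -0.10. The one that rose was Cap1, reported as a receptor of resistin in human monocytes, at 10.31 ± 0.06 in the knockout-labelled and 10.08 ± 0.08 in the WT group (0.23, SE 0.059, limma adjusted p = 0.0396). Its call was lost in 11 of 18 alternative fits, which include each fit with a single array left out (adjusted p 0.0503 to 0.0992), quantile normalization (0.0522) and the fit without knockout-labelled arrays 3 and 4 (0.232).

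The leptin receptor gene Lepr read 4.43, 4.23, 3.95 and 4.24 log2 in the knockout-labelled arrays, against 4.50, 4.58, 4.42 and 4.51 in the WT arrays (log2 fold change -0.29, SE 0.091, limma adjusted p = 0.0875). Knockout-labelled array 1 alone overlapped the WT range, and the row passed without it (0.0313). Lepr lay below the array medians on every array. Among the ErbB receptors that neuregulins bind or signal through, Erbb4 had a log2 fold change of -0.12 (adjusted p = 0.334), Erbb3 of -0.37 (0.253) and Erbb2 of 0.01 (0.939). Erbb4 also lay below the array medians on every array. Erbb3 read 5.21, 5.34, 5.32 and 5.30 in the knockout-labelled arrays, against 6.31, 5.35, 5.40 and 5.60 in the WT arrays, so that WT array 1 carried most of the difference. Without that array it was -0.15.

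Adiponectin receptor genes Adipor1 and Adipor2 had log2 fold changes of -0.02 (limma adjusted p = 0.861) and -0.31 (0.112), and Cdh13, which encodes the adiponectin-binding T-cadherin, 0.14 (0.380). Adipor2 passed without WT array 1 (-0.40, adjusted p = 0.0289). The retinol transporter genes Stra6 and Stra6l, whose products take up retinol from Rbp4, had log2 fold changes of -0.09 (0.573) and -0.13 (0.327), and Kit, a reported receptor of meteorin-like, 0.14 (0.394).

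The apelin receptor gene Aplnr divided the knockout-labelled arrays in the same way as its ligand. It read 7.30, 7.36, 8.07 and 7.83 log2 in the knockout-labelled arrays, against 7.71, 7.71, 7.81 and 7.74 in the WT arrays. Arrays 1 and 2 lay below every WT array and arrays 3 and 4 above every one. The groups differed by -0.10 on the log2 scale (limma adjusted p = 0.757). The value was 0.21 (0.162) without arrays 1 and 2 and -0.41 (0.0140) without arrays 3 and 4. The component of all rows with the next largest variance divided these arrays alike, at -12.8 and -10.7 against 11.4 and 5.91. So did other genes, such as Gpd1 and Rarres2, chosen after their values were seen. The split is thus not particular to Apln and Aplnr, and a link between them was not tested.

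**Figure D3:**
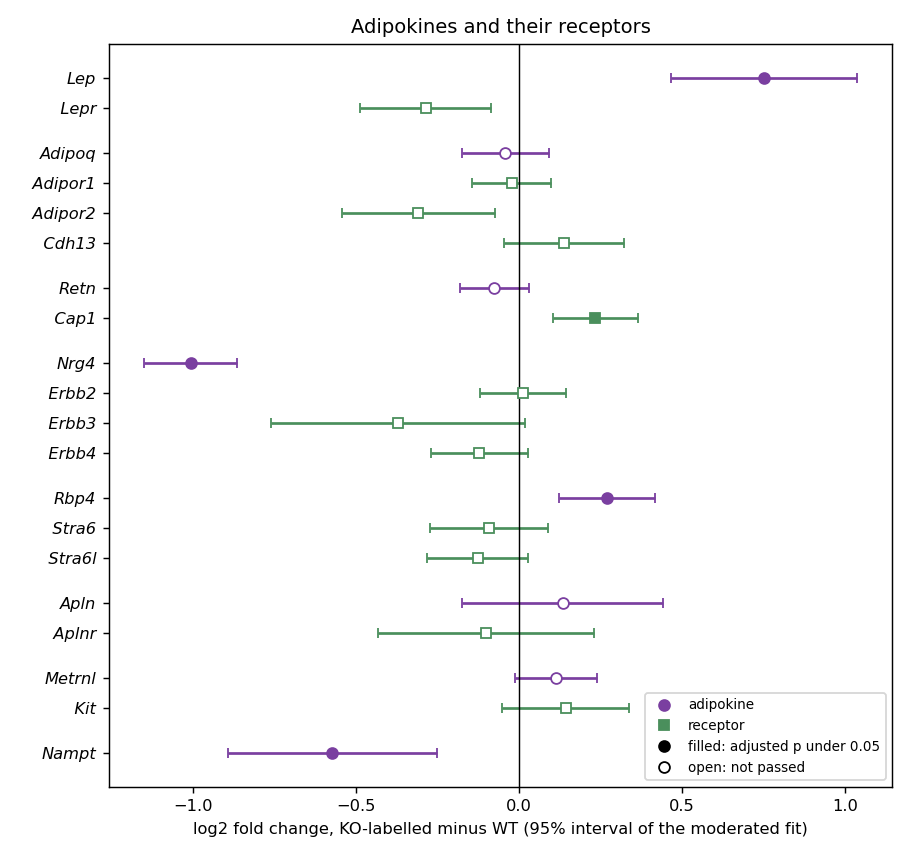
Log2 fold changes, knockout-labelled minus WT, of the adipokines (circles) with their receptors (squares) below each, and the 95% interval of the moderated fit (horizontal bars). Filled symbols passed a limma adjusted p under 0.05. Nrg4 lies at -1.01 while Erbb2, Erbb3 and Erbb4 lie at 0.01, -0.37 and -0.12 with open symbols.

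Genes that act with each adipokine were described from lists drawn from textbook knowledge, chosen with earlier results of these data known. Of 129 distinct genes measured over 9 lists, the clock genes not counted, 9 were called higher and 10 lower, which is 14.7%, against 7.40% of all rows, and their median log2 fold change was -0.03. The share over all rows covers dim rows too, so the 2 shares are not matched for brightness. Without the dimmest 33.3% of rows, 921 rows were called higher and 958 lower, against 791 and 745 of all rows. In that fit 17 genes of the related lists, clock genes included, were higher and 14 lower, against 12 and 10 as reported. Shares were not computed for that fit, so it does not show how the lists compare with rows of like brightness. Among the 9 other ErbB ligands measured, Nrg2 rose (0.26, SE 0.062, limma adjusted p = 0.0307) and 8 did not pass. The call of Nrg2 was lost in 9 of 18 alternative fits (0.0679 to 0.148), which include those without knockout-labelled array 2, 3 or 4 or WT array 2, 3 or 4. Nrg1 and Nrg3 had log2 fold changes of 0.02 (0.894) and 0.03 (0.881), chosen after their values were seen. Both genes averaged below the array medians in each group.

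All 11 measured genes of leptin receptor signalling had a log2 fold change below 0, where the median of all rows was -0.01. Of the 11, 2 were called lower and 0 higher, where 3.59% and 3.81% of all rows were, and 9 did not pass. The insulin receptor substrate gene Irs1 read 7.93, 7.97, 7.62 and 7.43 log2 in the knockout-labelled arrays, against 8.81, 8.22, 8.49 and 8.79 in the WT arrays, with no overlap (-0.84, SE 0.15, limma adjusted p = 0.00858). Irs2 read 7.13, 7.25, 6.77 and 6.72 in the knockout-labelled arrays, against 7.33, 7.67, 7.55 and 7.66 in the WT arrays (-0.58, SE 0.12, 0.0178). Both encode docking proteins that insulin uses more directly than leptin. Without knockout-labelled arrays 3 and 4 neither passed (0.0754 and 0.108), and Irs2 was also lost without knockout-labelled array 4 or WT array 2 or 4 (0.0521 to 0.0555). The median of the list was -0.10, and the feedback inhibitor gene Socs3, chosen after its value was seen, was at -0.10 (0.392). Since the list holds such an inhibitor too, the shared sign gives no direction of signalling.

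Of 18 measured regulators of adipokine transcription, 0 were called higher and 4 lower, where 3.81% and 3.59% of all rows were. These shares are not matched to the list for brightness. The median log2 fold change of the list was -0.17. The lipogenic factor gene Srebf1 fell by 0.67 on the log2 scale (SE 0.11, limma adjusted p = 0.00524), Cebpa by 0.37 (SE 0.058, 0.00454), Ppargc1a by 0.56 and the GC box factor gene Sp1 by 0.26 (SE 0.058, 0.0235). Cebpa read 9.98, 10.09, 10.13 and 10.02 log2 in the knockout-labelled arrays, against 10.38, 10.34, 10.49 and 10.48 in the WT arrays, with no overlap. The adipogenic receptor gene Pparg, which drives Adipoq, was at -0.26 (adjusted p = 0.0962), chosen after its value was seen. The call of Sp1 was lost in 6 fits (0.0589 to 0.165), which include those without knockout-labelled array 3 or 4 or WT array 1 or 4.

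Of 12 measured genes for folding and release of adiponectin, 0 passed in limma and 3 had an unadjusted p under 0.05, and the median log2 fold change was 0.04. Of 16 NAD genes besides Nampt, 3 were lower and 0 higher, where 3.59% and 3.81% of all rows were. The NAD kinase genes Nadk (-0.32, SE 0.063, limma adjusted p = 0.0133) and Nadk2 (-0.32, SE 0.068, 0.0169) and the transhydrogenase gene Nnt (-0.22, SE 0.057, 0.0456), all of which serve the NADP pool, fell. The Nnt call was lost in 12 of 18 alternative fits (0.0621 to 0.226), which include each fit without a single array other than knockout-labelled array 1, and median centring (0.0722). Nadk and Nadk2 were lost without knockout-labelled arrays 3 and 4 (0.104 and 0.132), and Nadk2 also without array 4 alone (0.0547). The NAD-dependent deacetylase gene Sirt1 was at -0.32 (0.0785), chosen after its value was seen.

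Of 15 genes of retinol and retinoic acid handling besides Rbp4, Dhrs3 alone passed, where 7.40% of all rows did. It encodes an enzyme that turns retinaldehyde back to retinol, and it read 10.68, 10.59, 10.75 and 10.59 log2 in the knockout-labelled arrays, against 9.84, 10.12, 10.08 and 10.10 in the WT arrays. The difference was 0.62 on the log2 scale (SE 0.073, limma adjusted p = 0.000887), and the call held in all alternative fits. Of 9 measured genes of the alternative complement pathway, in which adipsin cleaves factor B, the factor B gene Cfb rose (0.50, SE 0.082, 0.00565) and so did the decay-accelerating factor gene Cd55 (0.56, SE 0.13, 0.0295). Thus 2 of the 9 were called higher and 0 lower, where 3.81% and 3.59% of all rows were. Cfb read 9.17, 9.45, 9.34 and 9.56 in the knockout-labelled arrays, against 8.88, 8.86, 8.97 and 8.82 in the WT arrays. The Cd55 call was lost in 6 fits (0.0572 to 0.219), which include those without knockout-labelled array 3 or 4 or WT array 2 or 3.

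Other secreted adipose factors included a larger difference than any of the 8 members. The Wnt antagonist gene Sfrp5 read 7.45, 8.03, 7.87 and 8.13 log2 in the knockout-labelled arrays, against 6.41, 6.70, 6.78 and 5.72 in the WT arrays. It was 2.77-fold higher (1.47, SE 0.22, limma adjusted p = 0.00355), with no overlap. Of 28 measured genes, 4 were called higher and 1 lower, where 3.81% and 3.59% of all rows were. The median log2 fold change was 0.09. The matricellular gene Ccn5 (0.41, SE 0.056, 0.00220) and C1qtnf1, a gene related to adiponectin (0.47, SE 0.11, 0.0283), rose, and the growth factor gene Igf1 fell (-0.55, SE 0.078, 0.00254). Igf1 read 10.06, 9.77, 10.10 and 9.99 in the knockout-labelled arrays, against 10.42, 10.56, 10.52 and 10.63 in the WT arrays. The remaining call, Slit2 (0.23, 0.0422), was named after its value was seen and lost in 11 of 18 alternative fits, which include each fit without a single array (0.0552 to 0.111). C1qtnf1 was lost in 7 fits (0.0546 to 0.0844), which include those without knockout-labelled array 2 or 4 or WT array 1, 3 or 4.

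**Figure D4:**
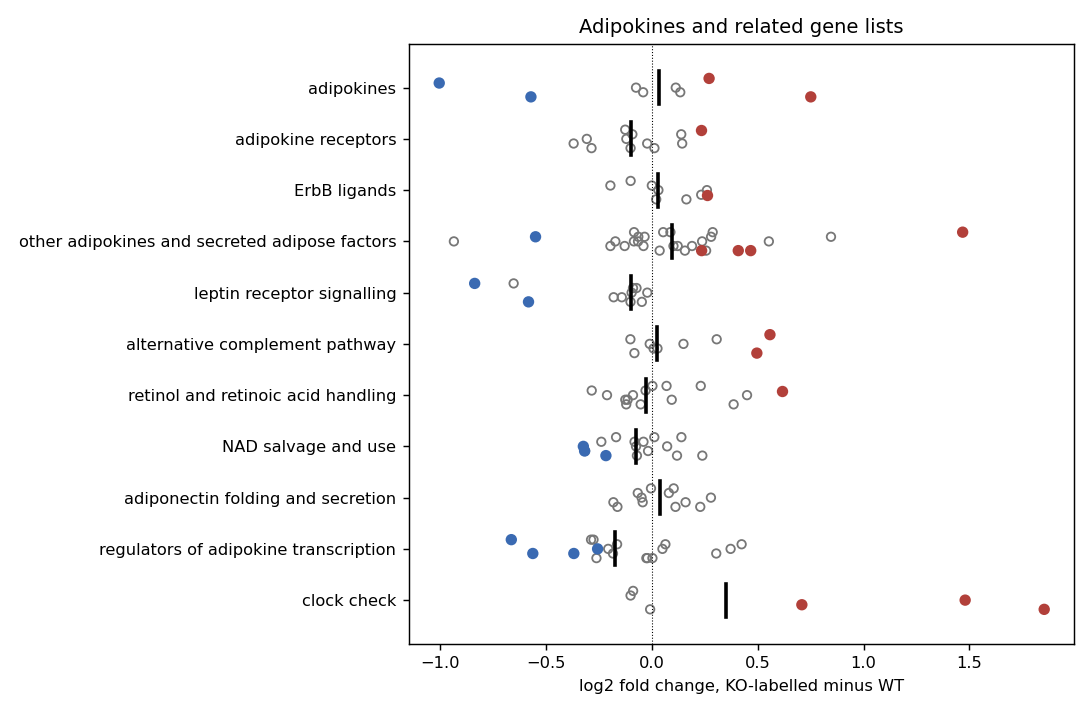
Log2 fold changes, knockout-labelled minus WT (horizontal axis), of the 8 adipokines, of genes in 9 related lists and of the clock genes (rows). Filled points passed a limma adjusted p under 0.05 (red higher, blue lower), open points did not, and black bars mark each list's median. All 11 leptin signalling genes lie below 0, 2 of them filled and 9 open. Sfrp5 is the rightmost point among the other secreted factors at 1.47.

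Genes whose profile over the 8 arrays was closest to that of Lep or Nrg4 were picked by Pearson's r among 16907 genes, a description in which the difference between the groups is shared. For Lep the 5 closest were the sialyltransferase gene St3gal2, the annexin gene Anxa6, the corepressor gene Hr, Trim67 and the ubiquitin ligase adaptor gene Spop, with r of 0.980 to 0.985. Their log2 fold changes were 0.28, 0.30, 0.77, 1.51 and 0.19. Trim67 read 6.91, 7.84, 7.94 and 7.90 log2 in the knockout-labelled arrays, against 6.05, 6.28, 6.42 and 5.81 in the WT arrays, low in knockout-labelled array 1 as Lep was. For Nrg4 they were the kinase gene Gsk3a, Dolpp1, the deubiquitinase gene Usp11, Tlcd4 and the phosphatase gene Phlpp2, with r of 0.981 to 0.988. Their log2 fold changes were -0.07, -0.22, -0.45, -0.92 and -0.43, so that Gsk3a, the closest in shape, differed least of the 5. Gsk3a and Spop did not pass (limma adjusted p = 0.431 and 0.0774). The calls of St3gal2, Anxa6 and Dolpp1 were lost in 10, 8 and 5 of 18 alternative fits, and that of Hr in 1.

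Protein-coding genes next to the members on the chromosome were read from the GRCm38.p6 gene table, a comparison chosen after the members' values were seen. Of the 16 nearest measured neighbours of the 8 members, 2 passed the test, where 7.40% of all rows did. Beside Lep on chromosome 6, the synaptic adhesion gene Lrrc4 fell (-0.47, SE 0.063, limma adjusted p = 0.00200), opposite to Lep, and Rbm28 was at 0.28 (0.120). Lrrc4 averaged 4.77 log2 in the knockout-labelled and 5.24 in the WT group, below the array medians. Beside Nrg4 on chromosome 9, Fbxo22 was at 0.23 (0.0915) and Tmem266 at -0.05 (0.695), so neither neighbour fell with it. Beside Nampt on chromosome 12, Sypl fell (-0.24, SE 0.051, 0.0175), a call lost in 6 fits (0.0512 to 0.0837), which include those without knockout-labelled array 4 or WT array 2 or 3.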

How the data were processed

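Total RNA of epididymal fat was labelled with biotin and hybridised to whole-transcript Affymetrix arrays, 4 per group, per the labels. On the deposited log2 scale, read from a range of 2.09 to 13.4, each row has 1 value per array. Per the submitters' processing notes the tool was affy. The sources used here do not give background correction, normalization, summarization or genome build. A change common to most rows could therefore be hidden, and a dim row has no bound. The platform annotation gave 1 gene symbol to 20748 of 23346 rows, and only these were tested. No filter on dim rows was used.

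Knockout-labelled minus WT was estimated by lmFit and eBayes (limma 3.58.1 and R 4.3.3; 2 groups, two-sided, Benjamini-Hochberg adjustment over all 20748 rows, called at an adjusted p under 0.05). SE and 95% intervals are those of the moderated fit. The fit was tested on simulated data. The members, gene lists and tests were chosen with earlier results of these data known. Named were all members and receptors, the called genes of each list with up to 12 measured genes, up to 4 with the smallest p from longer lists, and the 5 genes most alike to Lep and to Nrg4, without predicted genes and without olfactory or vomeronasal receptors. The same rule was used for the 10 marker lists, with Ucp1 added. Promoter windows come from RefSeq (GRCm38.p6). No 2 arrays held identical values. Listed genes without a row of 1 symbol were not analysed here. Same-numbered arrays did not deviate together in every pair (correlations -0.034, 0.13, -0.0015 and -0.067 for numbers 1 to 4). With 4 arrays per group this cannot settle whether the numbers pair the samples, which were treated as unpaired.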

Additional observations from a re-analysis of the deposited data

Results flagged for a closer look

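In 12 of 152 groups of 4 arrays tested, 1 array lay far from the other 3, where chance gives about 1 in 20 groups. Among the adipokines this was Apln, at 6.81 log2 on WT array 4, against 6.64 to 6.66 on the other WT arrays. Among their receptors, Cap1 was at 9.96 on WT array 3, against 10.11 to 10.13, and Adipor2 at 10.82 on WT array 1, against 11.17 to 11.23. Of genes that act with an adipokine, Dhrs3 was at 9.84 on WT array 1, against 10.08 to 10.12, and Nadk at 9.89 on WT array 2, against 9.99 to 10.00. The cytokine signalling inhibitor gene Cish was at 7.95 on WT array 1, against 5.51 to 5.78. Of the genes alike to Lep or Nrg4, Trim67 was at 6.91 on knockout-labelled array 1, against 7.84 to 7.94, Dolpp1 at 7.62 on knockout-labelled array 1, against 7.58 on the other 3, and Phlpp2 at 7.35 on WT array 4, against 7.24 to 7.25. Of the remaining groups, Arntl was at 6.65 on knockout-labelled array 2, against 6.94 to 6.95, the progenitor marker Anxa3 at 7.99 on WT array 3, against 8.29 to 8.32, and the skeletal muscle marker Actn3 at 6.08 on knockout-labelled array 2, against 5.70 to 5.74.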

How the results depend on the processing

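Nrg4 passed in all 18 alternative fits. With knockout-labelled arrays 3 and 4 left out, Lep (0.60), Nampt (-0.33) and Rbp4 (0.23) did not pass, 0 members were called higher and 1 lower, 6 genes of the related lists (clock genes included, 10 lists) were lower, and 403 rows were higher and 298 lower. In that fit the sign turned for Adipoq (0.0353), Apln (-0.129), Nr1d1 (0.0265), Adipor1 (0.0274), Cdh13 (-0.00327), Stra6 (0.00619) and Tmem266 (0.00866). It also turned for Apln without knockout-labelled array 3 (-0.0163), for Aplnr without knockout-labelled array 1 (0.0107, in a range of -0.244 to 0.0107 without single arrays) or arrays 1 and 2 (0.209), and for Erbb2 without knockout-labelled array 2 (-0.00356), WT array 2 (-0.0292, in a range of -0.0292 to 0.0499) or knockout-labelled arrays 1 and 2 (-0.0155). None of these passed the test there. Quantile normalization left 1 member higher, with Rbp4 at 0.25. An adjusted p under 0.10 gave 1236 rows higher and 1316 lower, and one under 0.05 with at least 1.5-fold gave 210 and 116, with 1 member in each direction.

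With single arrays left out, 1 to 2 members were higher and 1 to 2 lower, 7 to 11 genes of the related lists were higher and 6 to 12 lower, and 499 to 747 rows were higher and 414 to 671 lower. Nampt ranged from -0.72 to -0.46 and Rbp4 from 0.23 to 0.31. The causes were not tested. Without the dimmest 33.3% of rows, 921 were higher and 958 lower, and after centring on array medians 914 and 593, a larger share of higher calls than the 791 and 745 as reported. With 4 arrays per group, small differences can miss the test.

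Array numbers were shared by the groups, and whether they pair the samples is not known. With the replicate number as a block, 597 rows were higher and 508 lower, 1 member was called higher, and Rbp4 (0.27) did not pass (limma adjusted p = 0.0588), whereas Lep, Nrg4 and Nampt did.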

Other observations

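The listed genes described here did not pass the test and were chosen after their values were seen. Lcn2, which encodes the secreted iron-siderophore carrier lipocalin 2, read 7.40, 7.76, 7.92 and 7.54 log2 in the knockout-labelled arrays, against 10.27, 8.79, 7.59 and 7.73 in the WT arrays (limma adjusted p = 0.294). WT array 1 was the highest for Lcn2, Cish and Erbb3. Agt, which encodes angiotensinogen, read 11.32, 11.43, 10.91 and 11.03 in the knockout-labelled arrays, against 10.23, 10.90, 10.56 and 10.78 in the WT arrays. The groups did not overlap, and its log2 fold change of 0.55 (SE 0.15) missed the threshold (limma adjusted p = 0.0525). It passed in 5 of 18 alternative fits (0.0387 to 0.0498), which include those without knockout-labelled array 3 or WT array 2. Angptl4, which encodes a secreted inhibitor of lipoprotein lipase, read 10.23, 10.60, 9.54 and 9.75 in the knockout-labelled arrays, against 8.80, 9.15, 9.01 and 9.76 in the WT arrays (0.85, SE 0.24, limma adjusted p = 0.0635), with WT array 4 inside the knockout-labelled range. It passed in 4 of 18 (0.0301 to 0.0469), which include those without knockout-labelled array 3 or WT array 4, and its value ranged from 0.46 to 1.23.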
